A study of Homo sapiens with 29 samples.

Results

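The replication-dependent histone genes are the clustered genes that supply linker histone H1 and the core histones H2A, H2B, H3 and H4 while DNA is being copied. They were taken as the rows of both count tables whose symbol was H1-1 to H1-6, or H2AC, H2BC, H3C or H4C followed by digits, or an older HIST1H to HIST4H name. Of 59 such rows, 17 were pseudogenes by symbol, 2 were pseudogenes by their GENCODE gene type, 4 had 0 counts in all 29 libraries and 1 symbol had letters after its digits. This left 35 members of 63677 features, namely 6 H1, 9 H2A, 10 H2B, 6 H3 and 4 H4 genes. Histone genes among the 11151 features without a symbol could not be found by this rule. Sums, shares of counts and ranks below therefore cover these 35 members and not the whole gene class. Of these, 23 lie on chromosome 6, 11 on chromosome 1 and 1, H4C16, on chromosome 12.

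Histone synthesis is tied to DNA synthesis: the genes are switched on at the start of S phase by cyclin E and CDK2 acting through the coactivator NPAT. Their messages usually end in a conserved stem-loop in place of a poly(A) tail. SLBP, the stem-loop binding protein, and the U7 small nuclear ribonucleoprotein direct the cut that makes this end, and the messages are degraded when replication stops. Core histones pair as H2A with H2B and as H3 with H4 in the nucleosome, and H1 binds the DNA between nucleosomes.

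The study measured RNA in 2 human prostate cancer cell lines. C4-2, a castration-resistant line derived from LNCaP, was grown in hormone-proficient medium in 8 groups of 3 libraries: CC-115, NU7441, CC-223, CC-115+Enza, NU7441+Enza, CC-223+Enza, Enza and Ctrl, with each agent at 1 µM for 24 h. 22Rv1, a line from a relapsed CWR22 xenograft, was measured as CC-115 (2 libraries) and Control (3 libraries), with CC-115 also at 1 µM for 24 h. The labels class NU7441 and CC-115 under DNA-PK inhibition and CC-223 as a TOR kinase inhibitor, and CC-115 is known to inhibit the TOR kinase as well. DNA-PK is a kinase of DNA double-strand break repair and TOR kinase a kinase that promotes growth. Enza is enzalutamide, an antiandrogen. The labels say neither what the Ctrl and Control cells received nor whether the libraries of a group came from separate cultures, so p-values measure only the spread between these samples, which may be technical.

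Library totals ran from 29580404 to 44864694 counts in C4-2 and from 31606952 to 44912917 counts in 22Rv1. Luminal prostate markers such as KLK3 and FOXA1 were detected in both lines, and 4 immune markers summed to at most 0.651 CPM (counts-per-million, with library sizes corrected for composition by TMM) in any library. The 4 stromal markers summed to at most 12.8 CPM, in a 22Rv1 CC-115 library. The 2 endothelial markers found summed to at most 4.58 CPM, in a C4-2 CC-223 library. Members took 0.15% to 0.159% of all counts in CC-115 C4-2 libraries and 0.775% to 0.831% in Ctrl libraries. In 22Rv1 they took 0.608% and 0.669% with CC-115 and 1.12% to 1.27% in Control libraries. Replicate 1 of CC-115+Enza, replicate 1 of Enza and replicate 2 of NU7441 stood apart from the other libraries of their groups in member levels, so results that rest on them are also given without them.

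The 3′ stem-loop was looked for because it is the processing signal these messages share, and it was searched as 16 bases in GENCODE v29 transcripts. It was present in an annotated transcript of 18 of the 35 members, and 12 of these also had a transcript that ran at least 100 bases past it, beyond the usual cut. The other members may have annotated ends that stop before it, or letters outside the pattern searched. A missing match therefore does not show that a gene lacks the stem-loop. The 4 forms found differ by few letters: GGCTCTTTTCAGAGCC in 11 members, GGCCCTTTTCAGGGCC in 3 H4 genes, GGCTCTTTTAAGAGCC in 3 members and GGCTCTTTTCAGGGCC in H2AC11. The 8 members below were chosen after their values were seen, to show each of the 4 forms in members with large and small falls with CC-115. Each line gives the 16 bases in capitals and 5 bases on either side, 5′ to 3′ on the gene's strand, written as DNA.
H2AC13: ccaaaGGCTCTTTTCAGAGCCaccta
H2AC11: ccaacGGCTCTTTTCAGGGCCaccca
H4C16: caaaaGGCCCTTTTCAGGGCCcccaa
H2BC4: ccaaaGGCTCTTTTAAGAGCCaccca
H4C8: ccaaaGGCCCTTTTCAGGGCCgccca
H2AC6: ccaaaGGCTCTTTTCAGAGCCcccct
H2AC25: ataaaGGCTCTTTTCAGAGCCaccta
H2BC15: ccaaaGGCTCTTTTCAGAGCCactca
In GRCh38 these are chr6:27808642-27808667 (plus strand) for H2AC13, chr6:27133510-27133535 (plus) for H2AC11, chr12:14770719-14770744 (minus) for H4C16 and chr6:26123467-26123492 (minus) for H2BC4. H4C8 is at chr6:26285126-26285151 (minus), H2AC6 at chr6:26124664-26124689 (plus), H2AC25 at chr1:228457364-228457389 (minus) and H2BC15 at chr6:27839085-27839110 (plus). H2AC13, H2AC6, H2AC25 and H2BC15 carry the same 16 letters. Their annotated protein-coding transcripts end at different distances past them, at 39 bases in H2AC13, 1114 in H2AC6, 390 in H2AC25 and 377 in H2BC15. Another annotated protein-coding transcript of H2BC15 has the same 16 letters elsewhere, at chr6:27865773-27865798 with the flanks, and ends 5 bases past them.

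Promoters were read from the RefSeq table (GRCh38.p14), which matched 32 of the 35 members, as the 250 bases before each start. Both strands were searched for 5 motifs, and no motif contains another. TATAAA was present in 22 of 32 members (68.8%) against 11.1% of 27305 promoters, and CCAAT in 29 of 32 (90.6%) against 33.0%. The octamer ATTTGCAT was present in 13 of 32 (40.6%) against 1.7%, and the count was 6 of 8 H2A, 6 of 10 H2B and 1 of 5 H3 promoters. AAACACA, the H1 AC box, was present in 6 of 6 H1 promoters and in none of the other 26 members' promoters, against 4.9% of all. GGTCCG, the core of the H4 element bound by HINFP, was present in 3 of 3 H4 promoters, 1 H2A and 1 H2B promoter, against 9.3% of all, and CCAAT was in none of the 3 H4 promoters. These matches are letters in a window and not tested sites.

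The promoter stretches below belong to genes whose levels are given further on. They are the shared regions of 2 pairs of oppositely directed genes whose members moved unequally, and the regions before H1-5, H4C8 and H2BC11. Whether their letters go with the changes was not tested. Capitals mark the motifs named above on either strand (ATTGG is CCAAT and ATGCAAAT the octamer read on the other strand). The region between the starts of H2BC4 (minus strand) and H2AC6 (plus strand), printed on the plus strand, is chr6:26123927-26124171.
H2BC4 to H2AC6: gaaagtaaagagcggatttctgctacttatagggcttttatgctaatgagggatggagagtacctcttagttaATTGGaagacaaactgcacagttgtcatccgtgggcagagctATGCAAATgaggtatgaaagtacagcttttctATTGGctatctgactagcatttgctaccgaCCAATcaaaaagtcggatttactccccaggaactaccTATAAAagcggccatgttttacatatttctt
The region between H2AC25 (minus) and H2BC26 (plus), on the plus strand, is chr1:228457874-228458102.
H2AC25 to H2BC26: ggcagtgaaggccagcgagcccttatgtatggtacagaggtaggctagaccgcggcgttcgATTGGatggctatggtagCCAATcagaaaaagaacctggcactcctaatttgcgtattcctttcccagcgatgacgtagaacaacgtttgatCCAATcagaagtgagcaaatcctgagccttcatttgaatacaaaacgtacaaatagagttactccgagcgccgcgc
The 150 bases before H1-5 (chr6:27867589-27867738), H4C8 (chr6:26285535-26285684) and H2BC11 (chr6:27132796-27132945) are printed on the minus strand, from which all 3 genes are read.
H1-5: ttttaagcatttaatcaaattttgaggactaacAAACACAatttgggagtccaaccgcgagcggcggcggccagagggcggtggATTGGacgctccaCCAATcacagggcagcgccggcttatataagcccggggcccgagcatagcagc
H4C8: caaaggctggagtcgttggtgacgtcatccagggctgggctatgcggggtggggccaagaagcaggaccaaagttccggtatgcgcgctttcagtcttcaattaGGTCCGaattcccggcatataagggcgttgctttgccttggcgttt
H2BC11: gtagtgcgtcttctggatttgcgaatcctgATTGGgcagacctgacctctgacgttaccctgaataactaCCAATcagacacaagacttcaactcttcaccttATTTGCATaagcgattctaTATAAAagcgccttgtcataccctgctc

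In Ctrl C4-2 cells the highest members, as RPKM (CPM per kb of annotated exon), were 3 H1 genes and an H4 gene. H1-2 averaged 1320 ± 94.1, H1-4 1180 ± 78.1, H4C3 1160 ± 84.8 and H1-5 1070 ± 85.7 RPKM (SD, n = 3), and their ranges overlapped from each to the next. Next came H2AC20 at 760 ± 59.3 RPKM and H2BC12 at 722 ± 32.8 RPKM, which also overlapped. The highest H3 member was H3C13 at 420 ± 22.2 RPKM. At the low end, H1-1, H1-3, H2AC7, H3-4, H3C14 and H3C15 stayed under the filter on low counts in C4-2 and were not tested there. H3C14 and H3C15 have identical annotated transcripts of 1656 bases, so reads cannot be assigned between them. H2AC7 shares 98.0% of its exon bases with H3C4, and how reads under several features were counted is not given in the sources used here.

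With CC-115 the order in C4-2 began H1-2, H1-4, H2AC20 and H4C3, at 240, 234, 218 and 210 RPKM, while H1-5 stood in place 10 at 67.2 ± 4.06 RPKM (n = 3). Of 35 members, 29 passed the filter on low counts in C4-2, 31 in 22Rv1 and 32 in the fit of both lines. H2BC18 shares 18.8% and H3C12 41.1% of exon bases with an unnamed feature on the same strand, and their counts carry that uncertainty.

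CC-115 in C4-2 went with the lowest histone mRNA levels among the single agents. Summed over members, CC-115 libraries held 1628, 1501 and 1621 TMM-scaled CPM, against 8980, 8498 and 7890 CPM in Ctrl libraries, or 18.7% of the Ctrl mean. By family the sum with CC-115 was 15.1% of the Ctrl mean for H1, 23.3% for H2A, 19.5% for H2B, 12.2% for H3 and 22.3% for H4. Of 29 tested members, 28 fell by edgeR's quasi-likelihood test at a Benjamini-Hochberg adjusted p under 0.05 and none rose, where 26% of the 22860 features tested were lower and 53.6% were called in either direction. The 28 include H2AC1, H2BC1 and HIST2H2AA3, with at most 4 counts in any CC-115 library. These passed the filter on low counts only through other groups, a limit that holds wherever they are counted. H1-3, with more counts with CC-115 than in Ctrl, was filtered out. With a stricter filter, all 25 members tested were lower (67.9% of all features called). The median member log2 fold change was −2.41, against 0.03 over all features tested. In RNA from whole cultures, fewer cells in S phase and less histone RNA per cell cannot be told apart.

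**Figure D1:**
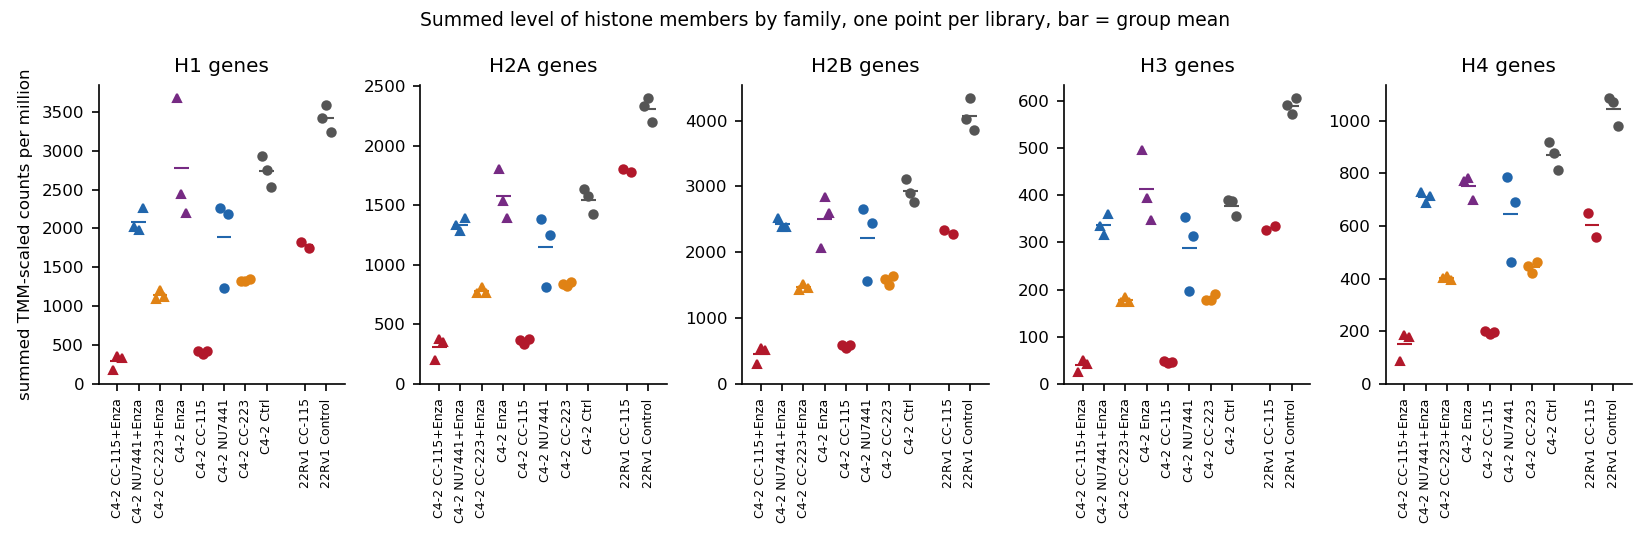
Summed TMM-scaled CPM of the members of each histone family (vertical axes, from 0) in each library of the 8 C4-2 groups and the 2 22Rv1 groups, with a bar at each group mean. CC-115 points, with or without Enza, are the lowest of the C4-2 groups in all 5 families, and CC-223 points lie between CC-115 and Ctrl.

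Among linker histones, H1-5 (chromosome 6, 27834570 to 27835359 in hg19, as for all positions below) fell most. It stood at 55.7, 49.5 and 54.2 CPM with CC-115, against 909, 857 and 775 CPM in Ctrl, a log2 fold change of −4.0 ± 0.26 (SE; adjusted p 2.05e-12). The related H1-2 had 181, 165 and 181 CPM with CC-115 and 1039, 957 and 902 CPM in Ctrl (−2.46 ± 0.19). H1-4 had 189, 173 and 190 CPM with CC-115 and 980, 938 and 859 CPM in Ctrl (−2.33 ± 0.23). None of these groups overlapped. H1-6, the testis linker histone, was the exception among the 29: it had 0.44, 0.564 and 0.53 CPM with CC-115 and 0.656, 0.631 and 0.529 CPM in Ctrl, groups that overlapped (−0.23 ± 0.34, adjusted p 0.59).

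All 8 tested H2A genes fell, over a wide range of −3.66 to −0.43 on the log2 scale. H2AC13 (chromosome 6, 27775899 to 27776429) had 23.6, 22.3 and 27.0 CPM with CC-115, against 332, 313 and 276 CPM in Ctrl (−3.66 ± 0.22, adjusted p 3.44e-13). H2AC20, the H2A member with the most reads per kb, had 99.0, 88.2 and 98.2 CPM with CC-115 and 350, 344 and 302 CPM in Ctrl (−1.80 ± 0.17). H2AC21 had 27.1, 25.99 and 29.2 CPM with CC-115 and 150, 149 and 135 CPM in Ctrl (−2.40 ± 0.21). The smallest falls were those of H2AC6 and H2AC25, although neither overlapped its Ctrl group. H2AC6 had 153, 142 and 157 CPM with CC-115 and 260, 248 and 230 CPM in Ctrl (−0.71 ± 0.15, adjusted p 0.000332). H2AC25 had 14.2, 12.9 and 12.2 CPM with CC-115 and 18.2, 18.1 and 16.6 CPM in Ctrl (−0.43 ± 0.11, adjusted p 0.00213).

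All 10 tested H2B genes fell. H2BC11 (chromosome 6, 27093676 to 27100541) had 16.9, 14.7 and 15.7 CPM with CC-115, against 339, 308 and 290 CPM in Ctrl (−4.31 ± 0.21, adjusted p 1.14e-14). H2BC12 had 144, 128 and 138 CPM with CC-115 and 621, 590 and 567 CPM in Ctrl (−2.12 ± 0.19). H2BC5 had 94.0, 89.8 and 95.8 CPM with CC-115 and 541, 486 and 455 CPM in Ctrl (−2.41 ± 0.18). H2BC11 was the most reduced of these 3, and their groups lay far apart. H2BC4 had 78.8, 74.6 and 79.6 CPM with CC-115 and 473, 442 and 405 CPM in Ctrl (−2.5 ± 0.19). H2BC21 had 93.9, 91.5 and 94.4 CPM with CC-115 and 424, 405 and 397 CPM in Ctrl (−2.13 ± 0.20). No group overlapped in these H2B genes. H2BC15 changed least of the family, with 82.3, 75.3 and 83.2 CPM with CC-115 and 107, 107 and 107 CPM in Ctrl (−0.41 ± 0.15, adjusted p 0.0233). Its annotated exons span 4265 bases, far past the coding unit.

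The 3 tested H3 genes and the 4 H4 genes fell as well. H3C13 (chromosome 1, 149784826 to 149785236) had 8.66, 8.59 and 9.44 CPM with CC-115, against 179, 176 and 162 CPM in Ctrl (−4.28 ± 0.21, adjusted p 1.19e-14). H3C4 had 37.6, 35.2 and 36.3 CPM with CC-115 and 208, 210 and 193 CPM in Ctrl (−2.49 ± 0.19). H3C12 was near 1 CPM, at 0.793, 0.779 and 0.53 CPM with CC-115 and 1.52, 1.58 and 1.28 CPM in Ctrl (−1.06 ± 0.25). Groups did not overlap for any of them. H4C16 (chromosome 12, 14920933 to 14924065), the solitary H4 gene, had 16.5, 16.5 and 16.7 CPM with CC-115 and 123, 119 and 115.2 CPM in Ctrl (−2.84 ± 0.13). H4C3 had 90.2, 85.0 and 86.7 CPM with CC-115 and 513, 489 and 444 CPM in Ctrl (−2.47 ± 0.21). H4C8 had 89.9, 84.1 and 88.0 CPM with CC-115 and 268, 254 and 239 CPM in Ctrl (−1.54 ± 0.19), the smallest fall of its family.

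**Figure D2:**
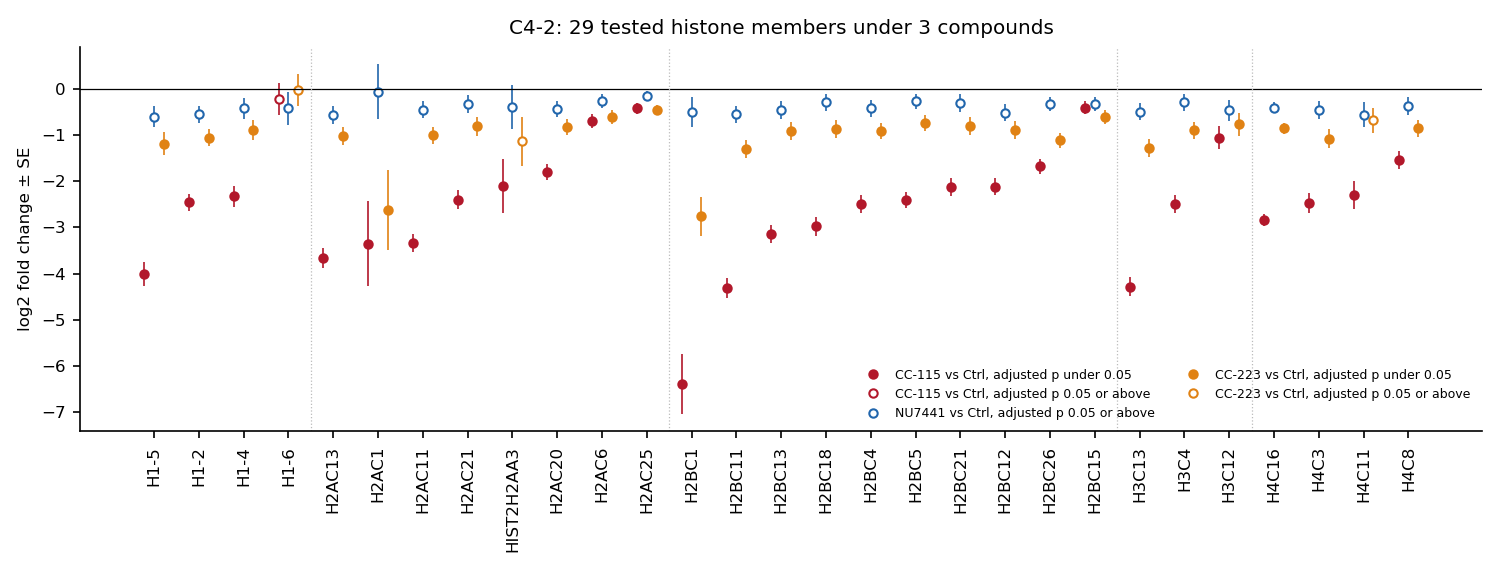
Log2 fold change against Ctrl in C4-2 (vertical axis, bars ± SE) for the 29 tested members, ordered by family and by the CC-115 fold change, for CC-115, NU7441 and CC-223. Filled points passed an adjusted p of 0.05; CC-115 points lie below CC-223 points for most members, and H2AC25, H2AC6 and H2BC15 are where these points come together.

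The size of the fall was set beside the annotated 3′ ends. The 10 tested members with a transcript running at least 100 bases past the stem-loop had a median log2 fold change of −1.91 with CC-115. The 5 with a stem-loop and no such transcript had −2.41, and the 14 with no match to it in GENCODE v29 transcripts had −2.46. Those 14 are set by annotated ends and a fixed search pattern and were not shown to lack the stem-loop. The classes come from GENCODE v29 and do not always describe the exons over which reads were counted. H2BC26 was counted over 452 bases and H2AC25 over 496, against GENCODE v29 transcripts of 2364 and 895 bases. H2AC6, H2AC25 and H2BC15, printed above, belong to the 10, but so do H4C16 (−2.84) and H2AC11 (−3.34). Histone genes known to make polyadenylated mRNA as well in differentiated or tumour cells were H1-2, H2AC6, H2BC4, H2BC5, H2BC11, H2BC12 and H2BC21. All 7 fell with CC-115, with a median of −2.41, the same as that of all 29.

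Testis members lay near the detection limit and are given by counts. H2BC1, a testis H2B, had 1 count over the CC-115 libraries and 107 over the Ctrl libraries, a depth-scaled ratio of 0.00867 (95% exact interval 0.000217 to 0.0493, counting error only). H2AC1, its H2A neighbour, had 2 counts with CC-115 and 22 in Ctrl, a ratio of 0.0843 (0.00961 to 0.343). H1-3 went the other way at the same low level, with 9 counts with CC-115 and 0 in Ctrl. That is at least 2.78-fold higher against a floor of 3 counts over the group, and it was not tested in C4-2.

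With CC-223 most histone members were lower as well. CC-223 libraries summed to 4384, 4249 and 4501 CPM over members, against 8980, 8498 and 7890 CPM in Ctrl, or 51.8% of the Ctrl mean. Of 29 tested members 26 fell (10.9% of all features lower, 23.9% called), with a median log2 fold change of −0.90. The 3 not called were H1-6 (−0.03 ± 0.34), HIST2H2AA3 (−1.14 ± 0.53) and H4C11 (−0.69 ± 0.27). H2BC11 had 128, 122 and 128 CPM with CC-223 and 339, 308 and 290 CPM in Ctrl (−1.31 ± 0.19, adjusted p 1.64e-05). H3C13 had 70.7, 68.1 and 74.7 CPM with CC-223 and 179, 176 and 162 CPM in Ctrl (−1.28 ± 0.19). H1-5 had 368, 375 and 368 CPM with CC-223 and 909, 857 and 775 CPM in Ctrl (−1.19 ± 0.24). The groups of these 3 genes did not overlap. H2BC1 fell by 2.76, and H2AC1, with 3 counts against 22, had a ratio of 0.151 (0.0289 to 0.501). The calls of H2AC1 and H3C12 were lost when single libraries were left out, at adjusted p up to 0.105 for H2AC1 without CC-223 replicate 1 and up to 0.0904 for H3C12 without CC-223 replicate 3.

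NU7441 showed no called member. NU7441 libraries summed to 7432, 4261 and 6883 CPM, against 8980, 8498 and 7890 CPM in Ctrl, or 73.2% of the Ctrl mean, and replicate 2 was far below the others. None of 29 members passed edgeR's quasi-likelihood test (3.39% of all features were called), while all 29 log2 fold changes were negative, from −0.61 to −0.07 with a median of −0.43. Of these, 15 had an unadjusted p under 0.05 and DESeq2 called 4 of the 25 to which it gave an adjusted p (5.17% of all features). H4C16 came nearest, with 106, 67.9 and 94.4 CPM with NU7441 and 123, 119 and 115.2 CPM in Ctrl (−0.41 ± 0.12, adjusted p 0.0586). H1-5 had 679, 330 and 654 CPM with NU7441 and 909, 857 and 775 CPM in Ctrl (−0.61 ± 0.23, adjusted p 0.158). Without replicate 2 the median was −0.25 and none was called (0.321% of all features). Without replicate 1 it was −0.61 and 6 were called (3.44% of all features). Without Enza 1 and CC-115+Enza 1, which share the fit's estimate of spread, 18 members were lower (21.7% of all features called), and without NU7441 2 as well 14 were (11.6%).

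All 3 compounds were given at the same dose and time, so their 3 pairs were compared directly. CC-115 was lower than NU7441 in 25 of 29 members (24.5% of all features lower, 49% called; median −2.01) and lower than CC-223 in 22 (22.7% lower, 43.1% called; median −1.45). H2BC11 differed by −3.75 between CC-115 and NU7441 and by −3.0 between CC-115 and CC-223, and H3C13 by −3.77 and −3.0. The members least changed by CC-115 did not pass the test against CC-223: H2AC25 differed by 0.03 (95% interval −0.20 to 0.27), H2AC6 by −0.09 (−0.40 to 0.22) and H2BC15 by 0.19 (−0.12 to 0.51). The interval was wider for H3C12, at −0.29 (−0.84 to 0.26), and for H1-6, at −0.20 (−0.92 to 0.51). The calls of H2AC6 against NU7441 and H2BC26 against CC-223 were each lost without single libraries, at adjusted p up to 0.109 for H2AC6 without CC-115 replicate 2 and up to 0.0947 for H2BC26 without CC-223 replicate 1. H2AC1 was also lost against NU7441 without NU7441 replicate 1 (adjusted p 0.0616).

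NU7441 was higher than CC-223 in 6 members (3.2% of all features higher, 7.31% called; median 0.49). These were H2BC1 (2.25), H2BC26 (0.78), H3C13 (0.77), H2BC11 (0.75), H3C4 (0.60) and H4C16 (0.44). H2BC26 had 19.1, 12.01 and 17.7 CPM with NU7441 and 10.8, 8.18 and 9.48 CPM with CC-223, with no overlap, whereas the H4C16 groups overlapped. Without NU7441 replicate 2, 22 members were higher (7.12% of all features called), and without NU7441 replicate 1 or 3 only 2 or 3 were (3.72% or 3.95%).

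Enza alone showed no called member (16.1% of all features were called), and 3 members had an unadjusted p under 0.05 and DESeq2 called 0 (17.9% of all features). Enza libraries summed to 8816, 7980 and 7240 CPM, against 8980, 8498 and 7890 CPM in Ctrl, and the median log2 fold change was 0.02. Enza replicate 1 differed from the others in opposite directions by family. Its H1 sum was 3679 CPM beside 2438 and 2203 CPM, and its H2B sum was 2066 CPM beside 2832 and 2598 CPM. H1-4 shows this, with 1489, 800 and 739 CPM with Enza and 980, 938 and 859 CPM in Ctrl. Without Enza 1, CC-115+Enza 1 and NU7441 2, 6 members were lower and 1 was higher with Enza, at a median of −0.09, where 24.4% of all features were called.

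With Enza present in both groups, CC-115 again went with low histone sums. CC-115+Enza libraries summed to 787, 1503 and 1405 CPM, against 8816, 7980 and 7240 CPM with Enza. The 28 members called lower with CC-115 alone were the 28 called lower here (30.2% of all features lower, 58.7% called; median −2.71). Without CC-115+Enza replicate 1, 28 members were again lower (55.4% of all features called), at a median of −2.42. H1-5 had 20.7, 44.6 and 39.6 CPM with CC-115+Enza and 1316, 788 and 698 CPM with Enza (−4.74 ± 0.27). H2BC1 had 4 counts against 137, a ratio of 0.021 (0.00563 to 0.0549), and H2AC1 had 0 counts against 32, at least 14.9-fold lower. H1-6 was called higher (28.5% of all features were) at 0.859, 0.755 and 0.977 CPM with CC-115+Enza and 0.781, 0.428 and 0.311 CPM with Enza (0.78 ± 0.33, adjusted p 0.0435). Those H1-6 groups overlapped, and the call was lost in DESeq2 (adjusted p 0.0551) and without either of Enza 2 and Enza 3 or either of CC-115+Enza 1 and 3 (0.0563 to 0.156).

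CC-223+Enza libraries summed to 3861, 4124 and 3911 CPM, and 24 members were lower than with Enza (15% of all features lower, 28% called; median −0.95). H1-5 had 305, 338 and 305 CPM with CC-223+Enza and 1316, 788 and 698 CPM with Enza (−1.56 ± 0.24). The calls of H2AC1 (adjusted p 0.0921) and H2BC18 (0.0641) were lost without Enza 2. NU7441+Enza libraries summed to 6933, 6653 and 7098 CPM and no member was called against Enza (0.381% of all features; median −0.15), with 4 at an unadjusted p under 0.05 and 0 by DESeq2. In tests of whether a compound's effect differed with Enza, edgeR called 0 members for each compound (0% of all features for NU7441, 3.27% for CC-115 and 0.376% for CC-223). The members at an unadjusted p under 0.05 numbered 1 for NU7441, 5 for CC-115 and 0 for CC-223, and DESeq2 called 0.

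Adding Enza to each compound changed few members. CC-115+Enza was lower than CC-115 in 3 (12.2% of all features lower, 23.8% called; median −0.27), namely H1-4, H4C8 and H2BC5. H1-4 had 75.7, 140 and 135 CPM with CC-115+Enza and 189, 173 and 190 CPM with CC-115 (−0.65 ± 0.22, adjusted p 0.0297). H4C8 had 31.7, 68.3 and 68.9 CPM with CC-115+Enza and 89.9, 84.1 and 88.0 CPM with CC-115 (−0.63 ± 0.19). In all 3 genes CC-115+Enza replicate 1 was lowest, and without it none was called (15.1% of all features) and the median was −0.03. Without CC-115+Enza replicate 2 or 3, 10 or 6 members were called (33.1% or 28.5% of all features). Without CC-115 replicate 1 or 3 none was (15.3% or 15.4%), and without replicate 2, 2 were (17.1%). With scaling by library size alone, 2 members were higher and 2 lower (27.1% of all features called). No member was called for NU7441+Enza against NU7441 (6.08% of all features; 4 at an unadjusted p under 0.05; 0 by DESeq2) or for CC-223+Enza against CC-223 (12.4%; 1; 0). Without NU7441 replicate 1, 2 members were called for NU7441+Enza against NU7441 (4.55% of all features).

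**Figure D3:**
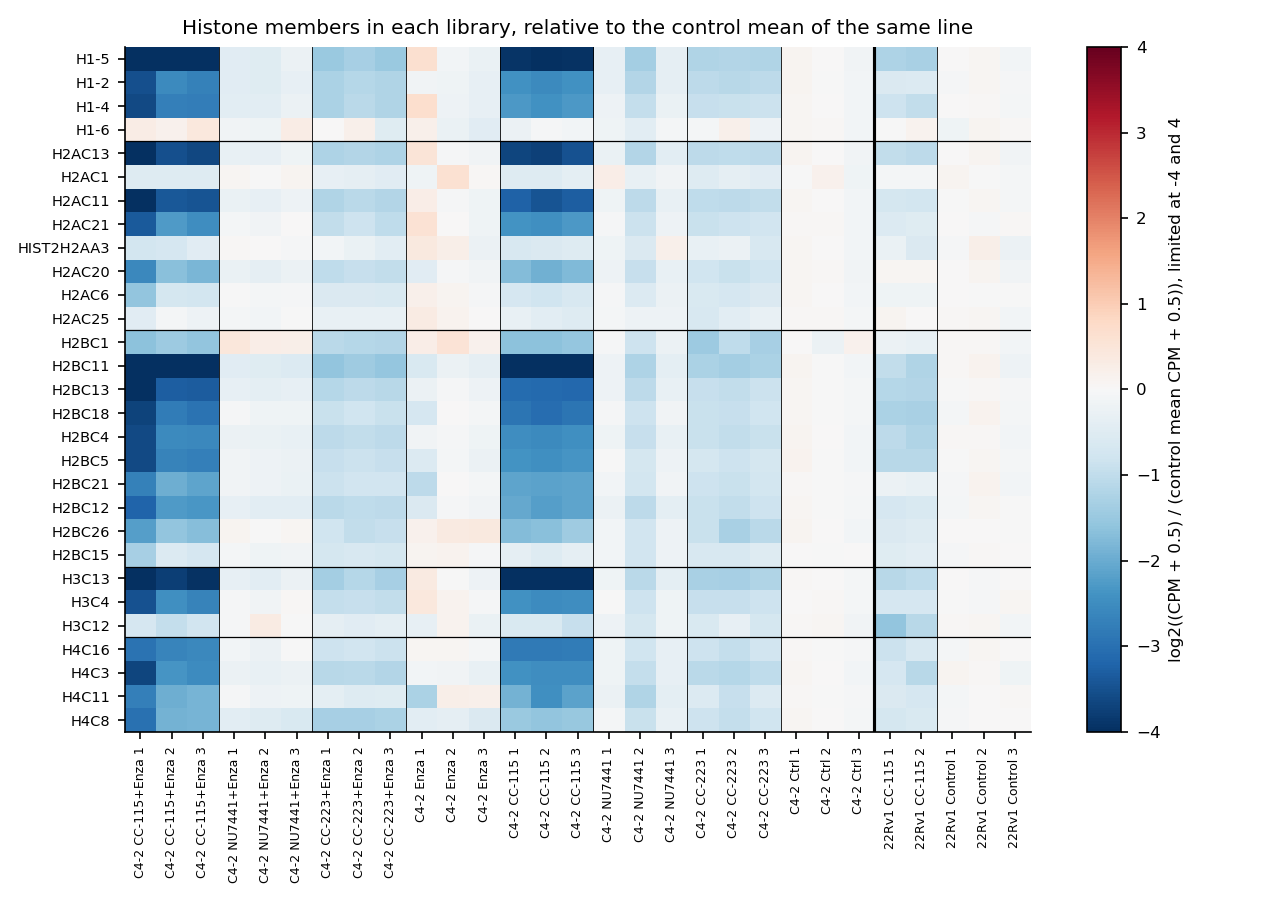
Log2 of the CPM of each tested member in each library over the mean of the control group of the same line (Ctrl or Control), with 0.5 CPM added, on a colour scale limited at −4 and 4. Rows are the 29 members tested in C4-2 grouped by family; CC-115 and CC-115+Enza columns are the darkest blue, and Enza 1, CC-115+Enza 1 and NU7441 2 stand apart from their groups.

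Among the members are 6 divergent pairs, with an H2A and an H2B gene read in opposite directions from starts 215 to 248 bases apart. The 5 pairs with enough counts were compared within each library as the log2 ratio of H2A to H2B counts, which no scaling between libraries alters. H2AC6/H2BC4, whose shared region is printed above, had ratios of 0.96 ± 0.02 with CC-115 and −0.84 ± 0.02 in Ctrl (SD, n = 3 each, exact permutation p 0.1). The difference of 1.80 means that H2BC4 counts exceeded H2AC6 counts in every Ctrl library and fell below them in every CC-115 library. H2AC25/H2BC26 had 1.04 ± 0.28 with CC-115 and −0.23 ± 0.05 in Ctrl, and H2AC11/H2BC11 had 1.63 ± 0.04 with CC-115 and 0.67 ± 0.03 in Ctrl. H2AC20/H2BC21 moved by 0.33 in the same direction and H2AC13/H2BC13 by −0.52 in the other.

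Of 27 such comparisons of pair ratios between groups, 2 of them of the low-count pair H2AC1/H2BC1, the 5 for CC-115 against Ctrl had non-overlapping groups and each an exact two-sided permutation p of 0.1, the smallest that 3 against 3 libraries can give, so none passed 0.05. With CC-223, H2AC6/H2BC4 had −0.54 ± 0.02 against −0.84 ± 0.02 in Ctrl, and H2AC25/H2BC26 had 0.43 ± 0.36 against −0.23 ± 0.05. The CC-223 ratio of H2AC11/H2BC11 was 0.29 above that of Ctrl, while H2AC20/H2BC21 (−0.02) and H2AC13/H2BC13 (−0.11) overlapped Ctrl. NU7441 groups lay apart from Ctrl for H2AC6/H2BC4 (0.19), H2AC11/H2BC11 (0.11) and H2AC13/H2BC13 (−0.1). They overlapped for H2AC20/H2BC21 (−0.14) and H2AC25/H2BC26 (0.2). Between CC-115+Enza and Enza, H2AC20/H2BC21 overlapped (0.06). H2AC6/H2BC4 (1.7), H2AC25/H2BC26 (1.82), H2AC11/H2BC11 (0.62) and H2AC13/H2BC13 (−0.44) did not. In 22Rv1, H2AC6/H2BC4 had 0.50 ± 0.10 with CC-115 (n = 2) and −0.47 ± 0.09 in Control (n = 3), with an exact permutation p of 0.2, the smallest for that design. The 22Rv1 ratio was higher with CC-115 in all 5 pairs, including H2AC13/H2BC13 at 1.12 ± 0.03 against 0.97 ± 0.09.

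**Figure D4:**
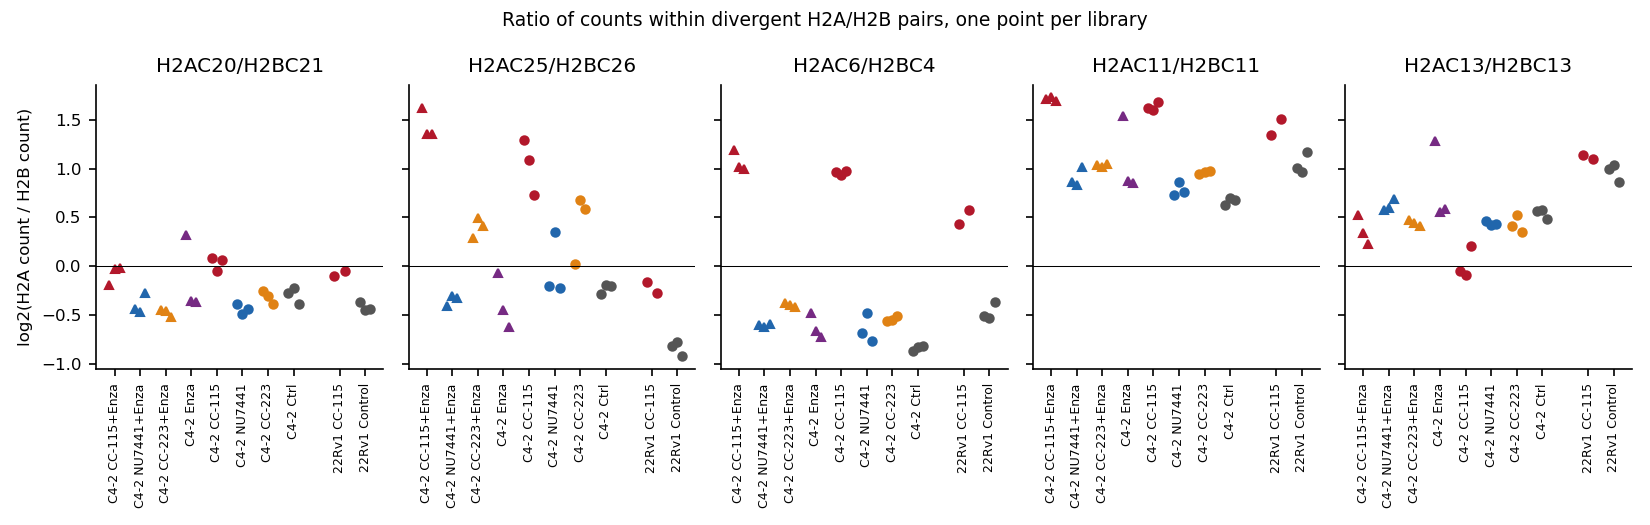
Log2 ratio of H2A to H2B counts (vertical axis) in each library for 5 divergent pairs, by group. The CC-115 points of H2AC6/H2BC4 lie near 1 in C4-2 and the Ctrl points near −0.84, while the H2AC13/H2BC13 points move the other way in C4-2.

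In 22Rv1 most histone members were lower with CC-115 too. CC-115 libraries summed to 6942 and 6698 CPM, against 11460, 11990 and 10890 CPM in Control, or 59.6% of the Control mean. By family the sum was 52.3% for H1, 77.5% for H2A, 56.7% for H2B, 55.9% for H3 and 57.7% for H4. Of 31 tested members 23 fell and none rose (20.7% of all features lower, 40.9% called; median −0.72, against −0.02 over all features), and DESeq2 called 23. Small and mitochondrial RNA took 18% and 16.6% of CC-115 counts in 22Rv1 and 11.4% to 12.3% of Control counts. With these removed 23 members were again called (41.6% of all features).

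The largest falls in 22Rv1 were of 2 members with few reads and of H2BC18. H3-4 (chromosome 1, 228612546 to 228613026), a testis H3, had 0.139 and 0.208 CPM with CC-115 and 0.685, 0.753 and 1.01 CPM in Control (−2.24 ± 0.42, adjusted p 0.0047). With 6 counts in each CC-115 library and 31, 34 and 33 in Control, H3-4 passed the filter on low counts only through Control. Its call and rank carry that limit. H3C12 had 1.20 and 1.84 CPM with CC-115 and 4.64, 4.76 and 4.17 CPM in Control (−1.59 ± 0.24), and H2BC18 had 281 and 274 CPM with CC-115 and 643, 741 and 630 CPM in Control (−1.28 ± 0.12). H1-5, the member with the most reads per kb in Control, had 602 and 569 CPM with CC-115 and 1420, 1495 and 1321 CPM in Control (−1.27 ± 0.10). No groups overlapped in these 4 genes. H2AC20 did overlap, with 511 and 508 CPM with CC-115 and 485, 520 and 440 CPM in Control (0.08 ± 0.11, adjusted p 0.582). H2AC25 (0.07 ± 0.11), H2AC6 (−0.16 ± 0.10), H2BC21 (−0.26 ± 0.11), H1-6, HIST2H2AA3, H3C14 and H3C15 were also not called. The call of H1-3 (−0.67 ± 0.22) was lost without Control 1, Control 2 or CC-115 2 (adjusted p 0.103 to 0.184).

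The difference between the lines was tested in one fit of 11 libraries, CC-115 against control in C4-2 minus the same in 22Rv1. Of 32 members, 24 differed, 23 of them with the larger fall in C4-2 (15.2% of all features lower, 27.5% called; median difference −1.72, against 0 over all features). H2BC11 differed by −3.26 ± 0.16 and H3C13 by −3.26 ± 0.11, and H1-5 differed by −2.78 ± 0.12 (adjusted p 1.40e-08). H2BC15, by contrast, differed by −0.01 ± 0.10 (adjusted p 0.981). H1-3 differed in the other direction by 5.07 ± 1.23 (adjusted p 0.0101; 12.3% of all features were higher), a fitted value that rests on the 9 counts of CC-115 and 0 counts of Ctrl in C4-2.

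**Figure D5:**
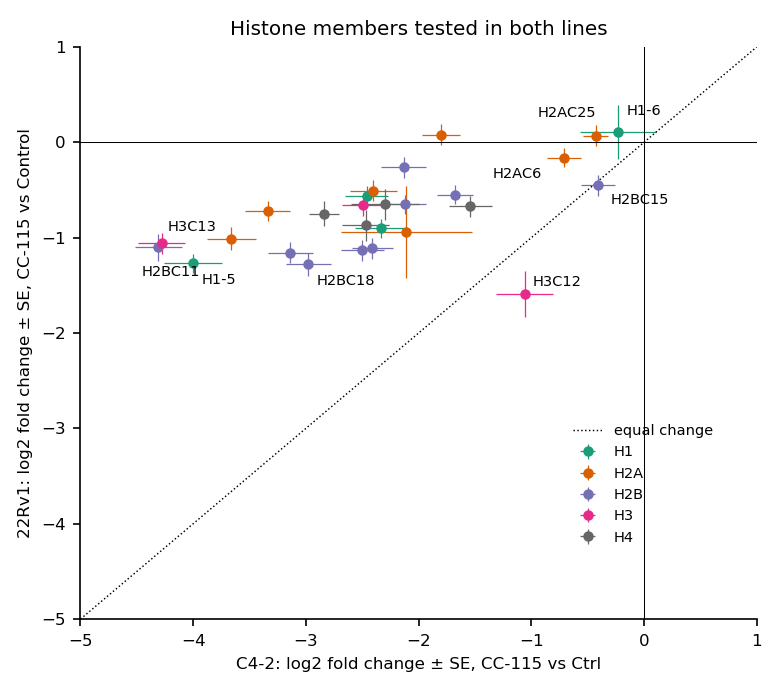
Log2 fold change with CC-115 in 22Rv1 (vertical axis, ± SE) against that in C4-2 (horizontal axis, ± SE) for the 27 members tested in both lines, coloured by family, with a dotted line of equal change. Of 27 members, 25 lie closer to 0 in 22Rv1, and H3C12 and H2BC15 do not.

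The regulators and carriers of histones, from lists chosen with earlier results of these data known, moved in both directions. Of 22 tested genes that transcribe or process histone mRNA, 16 were lower and 5 higher with CC-115 in C4-2 (median −0.55). Over all features tested there, 26% were lower and 53.6% were called in either direction. Lower were E2F1 (−3.61 ± 0.18), the cyclins E CCNE2 (−2.89 ± 0.15) and CCNE1 (−2.42 ± 0.12), CDK2 (−2.74 ± 0.17) and SLBP (−1.70 ± 0.15). NPAT, the coactivator of histone genes, was at −0.40 ± 0.16 (adjusted p 0.0329) and CPSF3, the nuclease that cuts the 3′ end, at −0.77 ± 0.15. Higher were HINFP (1.40 ± 0.13), which binds H4 promoters, and SYMPK (0.63 ± 0.12), the scaffold of the cleavage complex. UPF1 (0.61 ± 0.12), a helicase of histone mRNA decay, was higher as well. In 22Rv1, 12 of the 22 were lower and 4 higher (20.7% of all features lower, 40.9% called, median −0.88). There SLBP was at −1.17 ± 0.13, NPAT at −0.96 ± 0.28 and HINFP at 1.33 ± 0.13. With CC-223, 10 were lower and none higher (10.9% of all features lower, 23.9% called), and with NU7441 none was called (3.39% of all features).

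Of 20 histone chaperones and assembly factors, 14 were lower and 2 higher with CC-115 in C4-2 (median −0.91), and 12 were lower and none higher in 22Rv1. Of all features, 26% were lower and 53.6% called in C4-2, and 20.7% were lower and 40.9% called in 22Rv1. The replication-coupled chaperones ASF1B (−3.0 ± 0.16), CHAF1B (−2.82 ± 0.16) and CHAF1A (−2.10 ± 0.18) fell most in C4-2. The 2 that were higher were HIRA (0.27 ± 0.10, adjusted p 0.0217) and CABIN1 (0.31 ± 0.12, adjusted p 0.033). DAXX, a chaperone of H3.3 as HIRA is, was lower (−0.50 ± 0.13). Among 11 tested genes listed as replication-independent histone variants, 10 were lower with CC-115 in C4-2 (26% of all features lower, median −0.81). The largest falls were of H2AX (−2.19 ± 0.19) and H2AZ1 (−2.05 ± 0.17). The H3.3 genes H3-3A (−0.45 ± 0.12) and H3-3B (−0.36 ± 0.15) fell less. In 22Rv1, 6 of 10 were lower (20.7% of all features lower, 40.9% called) and 1, H1-10, higher (0.45 ± 0.16).

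The 12 S-phase reference genes moved with the members. All 12 were lower with CC-115 in C4-2 (median −2.80, with PCNA at −3.19 ± 0.17), 11 with CC-223 (median −0.70) and 1 with NU7441 (median −0.34). Of all features, 26% were lower with CC-115 and 10.9% with CC-223, and 3.39% were called in either direction with NU7441. All 12 were lower with CC-115 in 22Rv1 (20.7% of all features lower, median −1.47). Between the lines, 10 of the 12 differed with the larger fall in C4-2 (15.2% of all features lower, 27.5% called). MKI67 differed the other way (0.89 ± 0.20, adjusted p 0.00472), at −0.59 ± 0.19 in C4-2 and −1.53 ± 0.20 in 22Rv1. Their part in the histone result was not tested.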

How the data were processed

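RNA from 24 C4-2 and 5 22Rv1 libraries was made into libraries with a stranded total RNA kit, per the labels' protocols, so no poly(A) selection was named. Per the submitters' processing notes, STAR 2.5.2a, featureCounts 1.5.0-p3, DESeq2 1.14.1 and build hg19 were used. The authors deposited raw read counts per gene in 2 tables of 63677 features. How featureCounts treated strand, reads aligned to several places and overlapping features was not given in the sources used here, nor was the release of the annotation.

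Features were named by matching their Ensembl gene IDs to a table of current symbols and to GENCODE v29: 52526 matched, holding 91.0% to 97.0% of the counts of a library, and the 11151 others stayed in all totals and tests and were not analysed here by name. Files' coordinates are hg19; sequences come from GENCODE v29 transcripts (GRCh38) and RefSeq promoters (GRCh38.p14), matched by gene.

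Counts were filtered with edgeR's filterByExpr, scaled by TMM and tested with edgeR 4.0.16 (R 4.3.3, limma 3.58.1) by quasi-likelihood, 1 fit for the 24 C4-2 libraries, 1 for the 5 22Rv1 libraries and 1 for 11 libraries (CC-115 and controls of both lines). P-values were adjusted by Benjamini-Hochberg over all features tested, with a threshold of 0.05, in 18 comparisons. CPM use the TMM factors of each line's fit, so a level in C4-2 and a level in 22Rv1 come from tables scaled separately. SE is the log2 fold change over the root of the F statistic. Ratios of low counts have exact 95% intervals and a floor of 3 counts, which cover counting error only. Tables and figures were made with Python 3.11.15, pandas 2.3.3, numpy 2.4.6, scipy 1.17.1 and matplotlib 3.10.9. The fits were checked on simulated counts. Alternatives were DESeq2 1.42.0, other scalings, other filters on low counts, removal of small and mitochondrial RNA, a replicate block, and leaving libraries out.

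Named members were the 3 per family with the most reads per kb, up to 3 with the largest called fall and rise per comparison, genes known to make polyadenylated mRNA, and testis members. H2AC6, H2AC25 and H2BC15 were singled out with CC-115 after their values were seen. The members, lists and tests were chosen with earlier results of these data known. No pair of replicates agreed within sampling noise (lowest chi-square per degree of freedom 6.16).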

Additional observations from a re-analysis of the deposited data

Results flagged for a closer look

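The CC-115 effect differed between the lines, by the test of that difference in the fit of both lines, in 24 of 32 histone members (27.5% of all features called). The difference, C4-2 minus 22Rv1, was −3.26 for H2BC11, −3.26 for H3C13 and −2.78 for H1-5, each with the larger fall in C4-2. For H1-3 it was 5.07, which rests on 9 counts with CC-115 and 0 counts in Ctrl C4-2 libraries. The lines differ in their number of CC-115 libraries (3 in C4-2 and 2 in 22Rv1), in the share of counts from small and mitochondrial RNA (6.8% to 7.1% with CC-115 in C4-2, and 16.6% and 18% with CC-115 in 22Rv1) and in the fall of S-phase genes (medians −2.80 and −1.47). The part of these in the difference was not tested. No group had the 4 libraries that a check for a single outlying library needs.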

How the results depend on the processing

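Over the alternatives run, the members tested changed with the filter. Called members for CC-115 against Ctrl ranged from 25 of 25 with a stricter filter (67.9% of all features called) to 31 of 35 with no filter (27.3%). Of those 31, 30 were lower and 1 was higher. The range was 24 to 28 for CC-223 against Ctrl (11.3% to 47.5% of all features called) and 20 to 25 for CC-115 in 22Rv1 (24.5% to 50.9%). For the difference between lines it was 23 to 25 (12.2% to 39.5%). Comparisons with few calls depended on settings, and the cause was not tested.

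Percentages in this paragraph are the share of all features called in the same setting. For NU7441 against Ctrl (0 in the report) the count was 1 with library size alone (5.0%), 4 with DESeq2 (5.17%) and 11 of 35 with no filter (2.02%). It was 3 of 25 with a stricter filter (8.62%) and 1 with small and mitochondrial RNA removed (3.53%). Without single replicates it was 0 to 6 (0.321% to 3.44%). With no filter, of 35 tested, it was 2 for Enza against Ctrl (8.51%), 2 for NU7441+Enza against Enza (1.38%) and 1 for NU7441+Enza against NU7441 (2.91%). It was 9 for CC-115+Enza against CC-115 (12.6%) and 1 for CC-223+Enza against CC-223 (5.88%). It was 20 for NU7441 against CC-223 (3.4%) and 2 for the interaction of CC-115 with Enza (2.12%). Without Enza 1 and CC-115+Enza 1 it was 18 for NU7441 against Ctrl (21.7%), 1 for Enza (21.4%) and 3 for NU7441+Enza against NU7441 (15.7%). It was 1 (higher, not lower) for CC-115+Enza against CC-115 (23.7%). It was 1 for CC-223+Enza against CC-223 (26.6%) and 22 for NU7441 against CC-223 (25.2%). Without NU7441 2 as well, a setting chosen after seeing the data, it was 14 for NU7441 against Ctrl (11.6%) and 7 for Enza (24.4%). There were 2 for NU7441+Enza against NU7441 (16.5%) and 11 (4 higher, 7 lower) for CC-115+Enza against CC-115 (26.1%). CC-223+Enza against CC-223 had 8 (29%) and NU7441 against CC-223 had 26 (27.6%). NU7441+Enza against Enza had 4 (5.83%) and the interaction of CC-115 with Enza had 3 (8.4%). In that setting H1-4 (−0.27) and H1-5 (−0.19) were lower with Enza than Ctrl, and H2BC11 (−0.19) was lower with NU7441+Enza than NU7441, each opposite in sign to the value over all libraries. Fitting only the libraries compared gave 1 for Enza, 1 for NU7441+Enza against NU7441, 0 for CC-115+Enza against CC-115, 12 for CC-223+Enza against CC-223 and 3 for NU7441 against CC-223, where 5.36%, 13.8%, 9.19%, 36.5% and 21.3% of all features were called. Library size alone gave 4 (2 higher, 2 lower) for CC-115+Enza against CC-115 (27.1%) and 12 for NU7441 against CC-223 (8.71%), for which a stricter filter gave 12 (14.9%). Without single replicates the range was 0 to 2 for NU7441+Enza against NU7441 (4.17% to 5.16%). It was 0 to 10 for CC-115+Enza against CC-115 (15.1% to 33.1%) and 2 to 22 for NU7441 against CC-223 (3.72% to 7.12%).

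Same-numbered deviations from group means correlated at −0.64 to 0.59 in C4-2 (median −0.02 over 84 pairs, and 0.03 over 168 pairs with unlike numbers). Of the 84, 21 were above 0.1, so a shared batch among some groups was not excluded. In 22Rv1 they correlated at −0.73 and 0.71. The deviations of the 2 CC-115 libraries there are opposite by construction, so these values cannot show whether replicate numbers paired the samples. With the replicate block, 28 members were called for CC-115 (52.5% of all features), 0 for NU7441 (2.5%) and 5 for NU7441 against CC-223 (6.02%, H3C4 lost). In 22Rv1, 22 were called for CC-115 (43.3%), and H1-6 was lost for CC-115+Enza against Enza in C4-2.

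Depth limits members under about 1 CPM (H1-6, H2AC1, H2BC1, HIST2H2AA3, H3C12), whose intervals are wide, and members that share exons or sequence with other features cannot be separated from them.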
